A study of Mus musculus with 16 samples.

Results

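The cytosolic ribosomal protein genes encode the proteins of the large and small subunits of the ribosome that translates nuclear-encoded messages. Members were all protein-coding genes with a mouse ribosomal protein symbol of the Rpl or Rps series (with Rplp0, Rplp1, Rplp2 and Rpsa, and without S6 kinases and pseudogenes) whose mean over the 16 liver libraries was at least 10 CPM (read counts scaled to library size). The table of 25006 genes held 83 protein-coding genes with such symbols, of which 50 were members, 30 of the large and 20 of the small subunit. All 50 passed the filter on low counts and were among the 13180 genes tested. The lowest means inside the minimum were 10.8 CPM (Rpl29) and 12.8 CPM (Rpl22l1), and the highest outside it were 7.07 CPM (Rps10) and 7.06 CPM (Rps12). The other 33 coding genes fell below the minimum, among them Rps6, Rpl11, Rpl19, Rpsa and Rps27a, so the members are not the whole ribosome.

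Liver RNA came from C57BL/6 mice that drank antibiotic or control water and were then gavaged once with a slurry of fast food or chow. Livers were taken 4 h later, and there were 4 libraries in each of 4 groups. The groups were fast food with antibiotic water, chow with antibiotic water, fast food with control water, and chow with control water. All mice received a gavage, so no group was left unfed. Which antibiotics were used, at what dose and for how long, and the age and sex of the mice, were not stated in those labels. The labels do not say that each replicate was a separate mouse, so p-values reflect the spread among these libraries, which may be technical.

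Ribosomal protein genes are transcribed in all cells at high and matched rates, since each mature ribosome holds 1 copy of nearly every subunit protein. Their messages start with a run of pyrimidines, the 5′ terminal oligopyrimidine (TOP) tract, through which mTORC1 and the RNA-binding protein Larp1 control their translation and stability after feeding. In liver, ribosome content is known to follow protein intake.

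Total counts ran from 8954378 to 18954655 per library. Reads resembling ribosomal RNA, counted in 4 features (Lars2, Mir6236, Gm20594 and Mir6240), took 2.45% to 8.42% of counts in 7 libraries, above a split at 1%, and 0.12% to 0.587% in 9. The low side held each fast food control library, fast food antibiotic replicate 3, chow antibiotic replicates 1 and 3, and chow control replicates 3 and 4. The hepatocyte markers in the table (7 of the 8 listed) summed to 69440 to 141100 CPM in fast food antibiotic, 133700 to 201300 CPM in chow antibiotic, 86260 to 97140 CPM in fast food control and 86200 to 116000 CPM in chow control livers, and none was at 0, so the liver label held. In bulk tissue, fewer cells of a type and less RNA per cell cannot be told apart.

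The TOP tract makes the first bases of these messages part of the biology, and sequence around the start site is shown for 8 members chosen for their behaviour. Rps15a, Rps18, Rpl27a and Rpl7a were lower after fast food and higher with antibiotics, as described later. Rpl15 and Rpl7l1 were the 2 members without a positive fold change for antibiotics after chow, and Rpl22l1 and Rpl5 varied most between libraries. The RefSeq promoter table (GRCm38.p6) held 37 of the 50 members. Each sequence runs 5′ to 3′ on the gene's strand from 60 bases before to 20 bases after the annotated start, and capitals mark the pyrimidine tract, defined as C followed by at least 6 bases of C or T within 10 bases before to 20 bases after that start.
Rps15a (chr7:118116128-118116207, minus strand): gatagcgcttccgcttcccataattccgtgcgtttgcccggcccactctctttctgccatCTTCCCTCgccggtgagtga
Rps18 (chr17:33955646-33955725, minus strand): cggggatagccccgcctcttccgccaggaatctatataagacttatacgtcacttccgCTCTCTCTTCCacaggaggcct
Rpl27a (chr7:109519135-109519214, plus strand): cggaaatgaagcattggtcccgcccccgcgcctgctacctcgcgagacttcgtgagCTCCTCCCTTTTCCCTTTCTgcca
Rpl7a (chr2:26910747-26910826, plus strand): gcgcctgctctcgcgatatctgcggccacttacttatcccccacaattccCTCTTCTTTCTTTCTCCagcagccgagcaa
Rpl15 (chr14:18270967-18271046, minus strand): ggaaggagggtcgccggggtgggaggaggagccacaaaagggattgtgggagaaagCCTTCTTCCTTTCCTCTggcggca
Rpl22l1 (chr3:28805448-28805527, plus strand): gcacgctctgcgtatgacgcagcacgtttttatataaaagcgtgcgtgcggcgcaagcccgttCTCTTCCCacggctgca
Rpl7l1 (chr17:46782637-46782716, minus strand): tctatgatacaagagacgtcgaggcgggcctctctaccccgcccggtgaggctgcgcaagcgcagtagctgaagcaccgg
Rpl5 (chr5:107900468-107900547, plus strand): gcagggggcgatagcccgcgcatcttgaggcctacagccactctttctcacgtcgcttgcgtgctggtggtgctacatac

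The tract was present at 19 of the members' 46 annotated starts (41.3%), against 13.5% of 32851 starts of all genes. A missing mark depends on the annotated start, since Rpl5 has a run of C and T just before the tract window. The other gene annotation used here starts Rpl5 upstream of that run, at position 107900502. By these starts, the tract was present for 11 of the 24 members with an entry that were lower after fast food in antibiotic-treated mice. It was present for 8 of the 13 with an entry that were not called there. The letters CTTCCGG, read on either strand over the 300 bases from 250 before to 50 after the start, occurred at 37.0% of the members' starts and 8.86% of all starts. They are the core recognised by factors of the ETS family. The letters AAGATGGC, part of the motif of the factor YY1, occurred on either strand at 15.2% of the members' starts and 2.75% of all starts. These matches describe letters in these windows and not binding.

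Levels differed widely between members whose proteins are made in equal number. Per kilobase of the principal annotated transcript, the mean level was 336 CPM per kb for Rpl8, the highest member, which lies near the peptidyl transferase centre, and 260 CPM per kb for Rpl4, which lines the nascent peptide tunnel. The lowest were 5.78 CPM per kb for Rps15a, whose principal transcript is annotated at 5179 bases, 8.87 CPM per kb for Rpl5, a partner of 5S ribosomal RNA, and 12.3 CPM per kb for Rpl3, which borders the peptidyl transferase centre. The Rps15a value rests on its annotated length, against a median of 855.5 bases in the members. Its mean level was 29.9 CPM, beside a median of 42.3 CPM in the members. The median member stood at 50.3 CPM per kb, and the median of the 33 genes below the minimum at 4.28 CPM per kb.

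Ribosomal protein genes have many processed pseudogenes, and reads of 50 bases can match several copies. Of the 50 members, 49 shared at least 1 stretch of 50 bases with another annotated gene, and 49 did so with an annotated pseudogene. The share of 50-base windows of the principal transcript that also occurred in a transcript of another gene was 2.96% for Rps3 and 7.86% for Rpl8, against 93.8% for Rpl5. It had a median of 42.5% in the members and 70.0% in the 33 genes below the minimum, where Rps27 reached 98.6%. Across the 83 genes the level per kilobase and this share had a Spearman correlation of -0.275, a description over genes that share libraries. The labels do not say how reads with several matches were counted, so levels of members with much shared sequence, and their order, are uncertain.

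**Figure D1:**
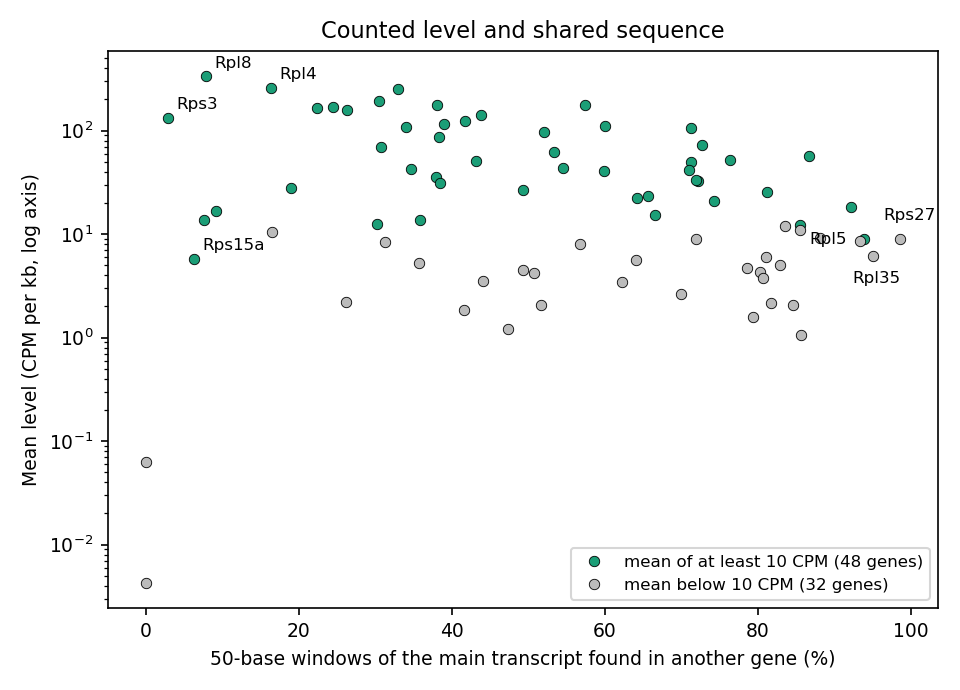
Mean level in CPM per kb of principal transcript (log axis) against the share of its 50-base windows found in a transcript of another gene, for 80 of the 83 coding genes (Rpl10l, with a count of 0 in all libraries, cannot be drawn on a log axis). Members (48 drawn, green) run from 5.78 (Rps15a, with a principal transcript of 5179 bases) to 336 CPM per kb (Rpl8) at shares under 10%. At shares over 90%, Rpl5, Rpl9, Rpl35 and Rps27 lie between 6.13 and 8.95 CPM per kb and Rpl10 at 18.5 CPM per kb.

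The chow meal with antibiotic water gave the highest ribosomal protein transcripts. Summed over the 50 members, the level was 3134, 3378, 2966 and 3276 CPM in the 4 fast food antibiotic livers, against 4283, 4770, 4434 and 4621 CPM in the 4 chow antibiotic livers. It was 3714, 3294, 3349 and 2868.5 CPM in the fast food control livers, against 3346, 3585, 3964.5 and 3314 CPM in the chow control livers. The 4 chow antibiotic values lay above all 12 others, which ran from 2868.5 to 3964.5 CPM. The other groups overlapped each other. Within the antibiotic groups the level was higher in libraries with a high rRNA-like share: fast food replicates 1, 2 and 4 had 3134, 3378 and 3276 CPM, against 2966 CPM in replicate 3, and chow replicates 2 and 4 had 4770 and 4621 CPM, against 4283 and 4434 CPM in replicates 1 and 3. The chow control libraries of the 2 sides overlapped (3346 and 3585 CPM, against 3964.5 and 3314 CPM). The order within the antibiotic groups did not hold without the scaling factors described below. The part of the rRNA-like share in the result was not tested. Group means were 3189 ± 179 CPM (fast food antibiotic), 4527 ± 213 CPM (chow antibiotic), 3306 ± 346 CPM (fast food control) and 3553 ± 300 CPM (chow control; SD, n = 4 each).

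**Figure D2:**
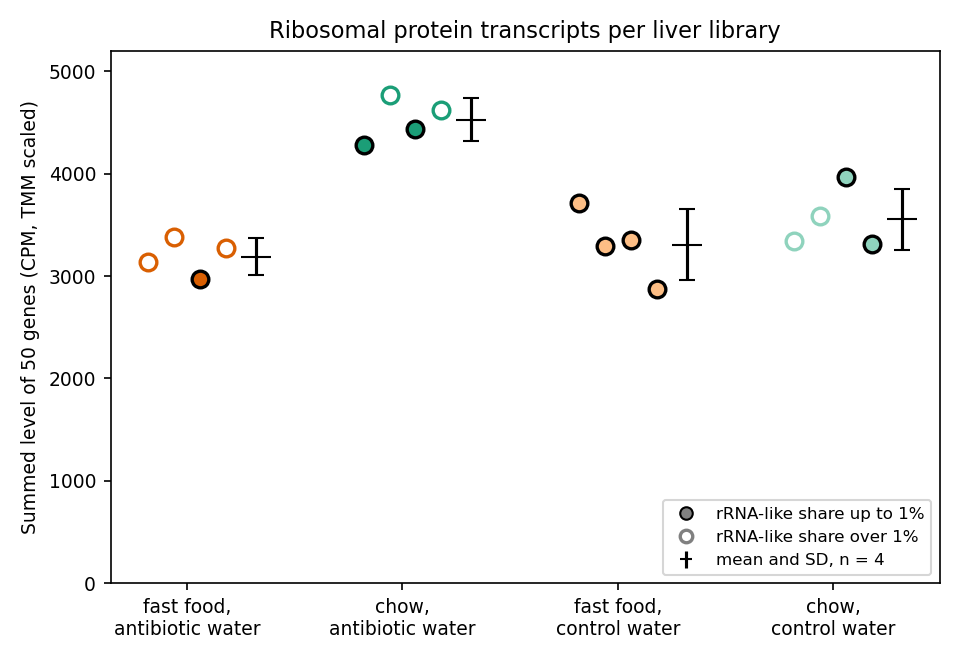
Summed level of the 50 ribosomal protein genes (CPM, TMM scaled) in each library, by group, with the mean and SD of 4 libraries. The 4 chow antibiotic libraries lie between 4283 and 4770 CPM, above the other 12. On this TMM scale, the libraries of both antibiotic groups with an rRNA-like share over 1% (open symbols) lie above those with a lower share (filled).

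These levels rest on TMM factors, which set the bulk of genes equal between libraries. Without them, as CPM of the deposited totals, the summed level was 3264 ± 199 CPM in fast food antibiotic and 3976 ± 250 CPM in chow antibiotic livers, and 3497 ± 280 CPM in fast food control and 3734 ± 440 CPM in chow control livers (SD, n = 4 each). On that scale the antibiotic groups still did not overlap (3118 to 3556 CPM after fast food and 3607 to 4159 CPM after chow). Chow antibiotic and chow control livers did overlap (3607 to 4159 and 3385 to 4362 CPM). The order by rRNA-like share within the antibiotic groups was lost. Chow antibiotic replicate 4, with a share of 7.69%, was the lowest of its group at 3607 CPM. Fast food antibiotic replicate 2 (3118 CPM) lay below replicate 3 (3163 CPM), which had a lower share. With TMM factors, albumin (Alb) averaged 76140 ± 24110 CPM in fast food antibiotic and 142800 ± 26370 CPM in chow antibiotic livers. On the same scale it averaged 72710 ± 4773 CPM in fast food control and 77540 ± 10920 CPM in chow control livers (SD, n = 4 each). The mean was thus highest in chow antibiotic libraries, whose TMM factors were 0.781 to 0.95. Factors below 1 raise values on this scale, so these means are not parts of the counts. The part of Alb in the result was not tested.

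In antibiotic-treated mice, fast food against chow gave lower transcripts for 36 of the 50 members and higher transcripts for none. Over all genes tested, 5.87% were called lower and 7.78% higher by edgeR's quasi-likelihood test at a Benjamini-Hochberg adjusted p under 0.05. The log2 fold change was negative for 49 members and had a median of -0.51, a fold change of 0.705, beside a median of 0.03 over all genes. The groups did not overlap, fast food below chow, for 39 members and for 6.71% of all genes tested, and in the other direction for no member and 7.78% of all genes. By subunit, 21 of the 30 large and 15 of the 20 small subunit members were called.

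Members of low p included Rps14, Rpl37a and Rpl32. Rps14, a small subunit protein whose human gene is lost on 1 copy in the anaemia of the 5q- syndrome, had 85.0, 86.9, 79.0 and 90.9 CPM in fast food antibiotic livers, against 122, 147, 140 and 134 CPM in chow antibiotic livers. The groups were well apart (log2 fold change -0.67 ± 0.11, SE; edgeR adjusted p = 0.002).

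Rpl37a, a small zinc-binding protein of the large subunit, had 12.9, 14.8, 14.6 and 12.6 CPM in fast food antibiotic livers, against 24.2, 23.1, 23.4 and 21.2 CPM in chow antibiotic livers. Every fast food value lay below every chow value (log2 fold change -0.74 ± 0.13, SE; edgeR adjusted p = 0.00426). Rpl32, of the large subunit, had 85.8, 84.4, 77.9 and 93.0 CPM in fast food antibiotic livers, against 124, 146, 126 and 128 CPM in chow antibiotic livers, again without overlap (log2 fold change -0.62 ± 0.12, SE; edgeR adjusted p = 0.00458). The calls of these 3 genes held when any 1 library was left out, with a highest edgeR adjusted p of 0.0201 (Rpl32, without fast food antibiotic replicate 3).

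Among members with special roles, the stalk proteins recruit elongation factors to the ribosome. Rplp0, the stalk's base, averaged 144 ± 13.0 CPM in fast food antibiotic and 209 ± 19.5 CPM in chow antibiotic livers (SD, n = 4 each) and was called lower (edgeR adjusted p = 0.00776). Rplp1 averaged 48.4 ± 3.83 and Rplp2 64.4 ± 10.3 CPM in fast food antibiotic livers, against 64.9 ± 6.66 and 86.8 ± 14.9 CPM in chow antibiotic livers (SD, n = 4 each). Rplp1 was called lower (edgeR adjusted p = 0.0328), and Rplp2 missed the threshold (edgeR adjusted p = 0.0537). Rplp1's call was lost in 6 of the 8 fits that left out 1 library, without chow antibiotic replicate 1, 2 or 3 or fast food antibiotic replicate 1, 3 or 4 (highest edgeR adjusted p = 0.0827).

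Rps3, which helps to hold the mRNA at its entry to the small subunit and also acts in DNA repair, averaged 220 ± 10.3 CPM in fast food antibiotic and 317 ± 5.15 CPM in chow antibiotic livers (SD, n = 4 each; edgeR adjusted p = 0.00554). Rpl13a, often used as a reference gene for quantitative PCR, averaged 158 ± 17.1 CPM in fast food antibiotic and 231 ± 7.93 CPM in chow antibiotic livers (SD, n = 4 each; edgeR adjusted p = 0.0132). Rpl8 and Rpl4, with high levels per kilobase, were also called lower, at 254 ± 24.6 and 363 ± 25.9 CPM in fast food antibiotic livers and 379 ± 53.4 and 494 ± 16.8 CPM in chow antibiotic livers (SD, n = 4 each; edgeR adjusted p = 0.00829 and 0.00998). Rpl3 was called lower at 15.9 ± 3.26 CPM in fast food antibiotic and 22.9 ± 3.67 CPM in chow antibiotic livers (SD, n = 4 each; edgeR adjusted p = 0.0325). Its groups overlapped, and its call was lost without chow antibiotic replicate 1 or 2 or fast food antibiotic replicate 1, 3 or 4 (highest edgeR adjusted p = 0.104).

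The 14 members not called in this comparison were Rpl5, Rpl7l1, Rpl10, Rpl15, Rpl18, Rpl22l1, Rpl29, Rpl38, Rplp2, Rps2, Rps4x, Rps19, Rps24 and Rps26. Of the 36 calls, 30 held in all 8 fits that left out 1 library, and 6 (Rpl3, Rpl6, Rplp1, Rps7, Rps9 and Rps15) were lost in at least 1. A fit of these 2 groups alone called 17 members, with a median log2 fold change of -0.52. With total counts in place of TMM factors, a scaling that moved the median of all genes to 0.24, 11 members were called lower, and the members' median was -0.29. The members' median lay 0.54 below that of all genes on either scale. A change of scaling factors shifts all genes nearly alike, so this gap could hardly differ and is no check of the result. On the high side of the rRNA-like split, with 3 fast food and 2 chow antibiotic libraries, the median was -0.52 with no member called, and the low side held only 1 fast food antibiotic library.

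**Figure D3:**
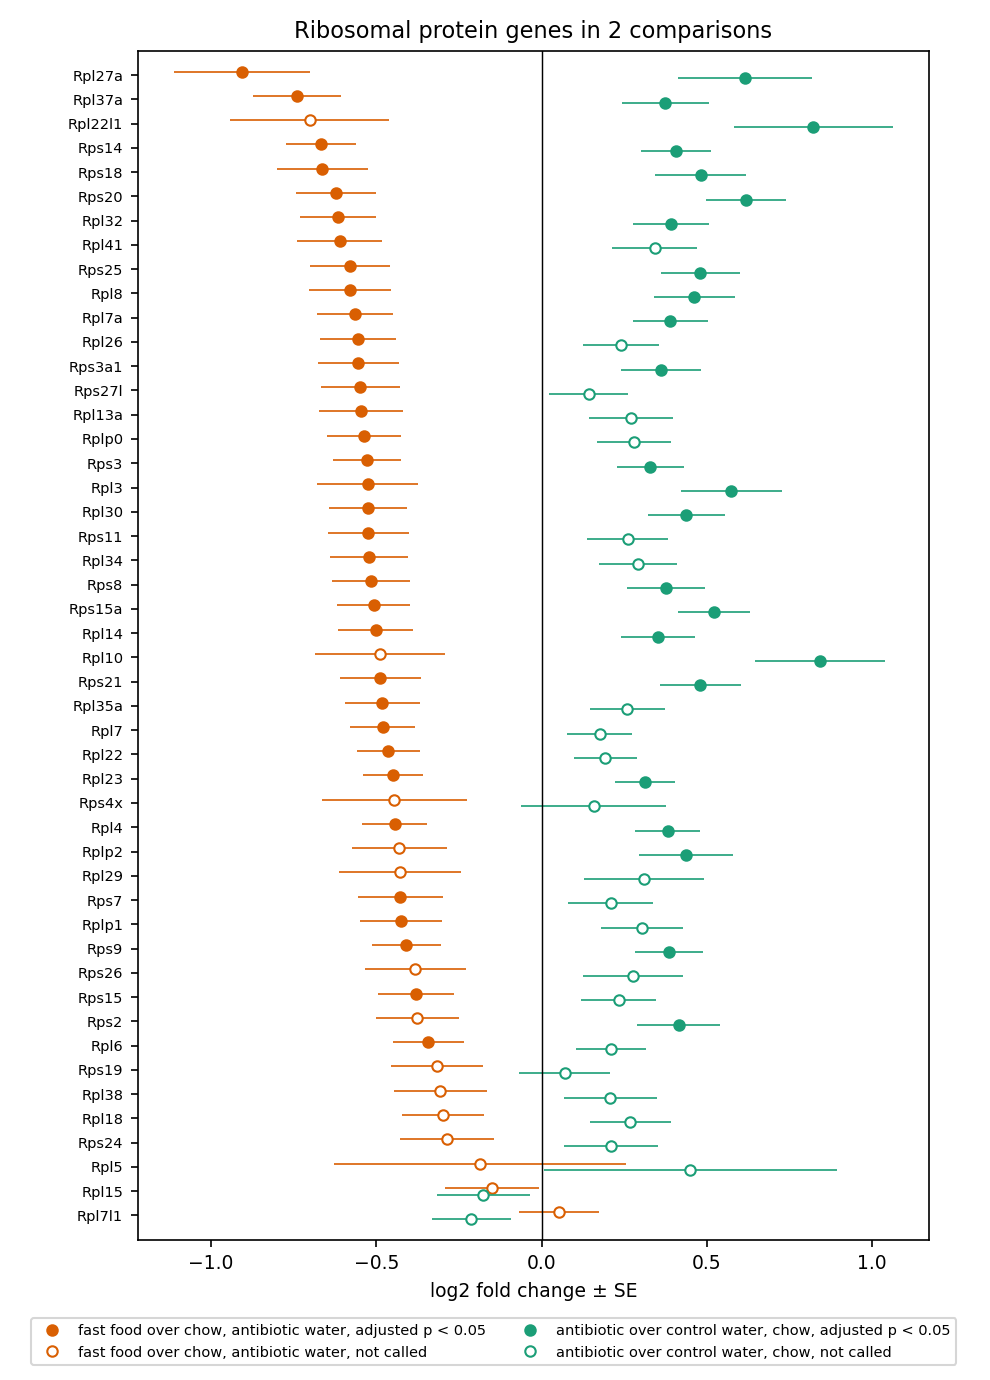
log2 fold change with SE of 48 of the 50 members for fast food over chow in antibiotic water (orange) and for antibiotic over control water after chow (green), with filled symbols for an adjusted p under 0.05. The orange values run from -0.91 (Rpl27a) to 0.05 (Rpl7l1) and the green from -0.21 (Rpl7l1) to 0.84 (Rpl10). Both comparisons use the chow antibiotic libraries.

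In chow-fed mice, antibiotic against control water gave higher transcripts for 26 of the 50 members and lower transcripts for none. Of all genes tested, 10.6% were called higher and 13.2% lower. The log2 fold change was positive for 48 members and had a median of 0.35, a fold change of 1.27, beside a median of -0.01 over all genes. The groups did not overlap, antibiotic above control, for 24 members and for 11.2% of all genes tested, and in the other direction for no member and 13.6% of all genes. This comparison shares the chow antibiotic libraries with the previous one, so the 22 members called in both (lower after fast food and higher with antibiotics) are not independent counts.

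Members of low p included Rps20, Rps15a and Rpl10. Rps20 (chromosome 4, 3831334 to 3835665, minus strand, GRCm38.p6), a protein of the small subunit head, had 67.1, 72.1, 65.1 and 80.1 CPM in chow antibiotic livers, against 41.5, 50.4, 51.1 and 41.9 CPM in chow control livers. Each antibiotic value exceeded each control value (log2 fold change 0.62 ± 0.12, SE; edgeR adjusted p = 0.00181). Rps15a, of the small subunit, had 38.9, 39.0, 36.3 and 41.3 CPM in chow antibiotic livers, against 23.6, 29.2, 31.4 and 23.9 CPM in chow control livers, with no overlap (log2 fold change 0.52 ± 0.11, SE; edgeR adjusted p = 0.00288).

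Rpl10 (chromosome X, 74270812 to 74273135, plus strand, GRCm38.p6), among the last proteins to join the large subunit, had 22.6, 21.7, 20.8 and 20.7 CPM in chow antibiotic livers, against 10.1, 16.6, 11.9 and 9.31 CPM in chow control livers. It had the highest log2 fold change of the 50 members in this comparison, 0.84 ± 0.20 (SE; edgeR adjusted p = 0.00578), and chow control replicate 2 was the highest control. With fast food and antibiotics its values were 11.0, 22.5, 13.5 and 14.1 CPM, of which replicate 2 reached the chow antibiotic range. The calls of these 3 genes held when any 1 library was left out (highest edgeR adjusted p = 0.0204, Rpl10 without chow control replicate 1).

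Single libraries and the scaling moved this count. Of the 26 calls, 12 held in all 8 fits that left out 1 library, and the count was 17 without chow control replicate 1, 17 without chow control replicate 4 and 16 without chow antibiotic replicate 2. With total counts in place of TMM factors, which moved the median of all genes to -0.25, the members' median was 0.08, with 2 members called higher and 2 lower. The members' median lay 0.35 above that of all genes with TMM factors and 0.34 above it with total counts. This gap too is nearly fixed, because a change of factors shifts all genes nearly alike. On the low side of the rRNA-like split (2 libraries a group) the median was 0.24 with 8 members called, and on the high side (2 libraries a group) it was 0.45 with none called.

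Over the groups, all 4 chow antibiotic libraries lay above the other 12 for 20 of the 50 members, where 2.82% of all genes tested had that order. The chow antibiotic columns form a block in the plot of relative levels, from which Rpl15, Rpl7l1 and Rpl5 depart. Rpl15, of the large subunit, had 17.6, 21.1, 25.3 and 22.1 CPM in fast food antibiotic livers and 20.8, 19.4, 29.1 and 26.6 CPM in chow antibiotic livers. It had 24.3, 26.7, 22.9 and 20.7 CPM in fast food control livers and 24.4, 27.0, 29.1 and 27.6 CPM in chow control livers. All 4 groups overlapped.

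**Figure D4:**
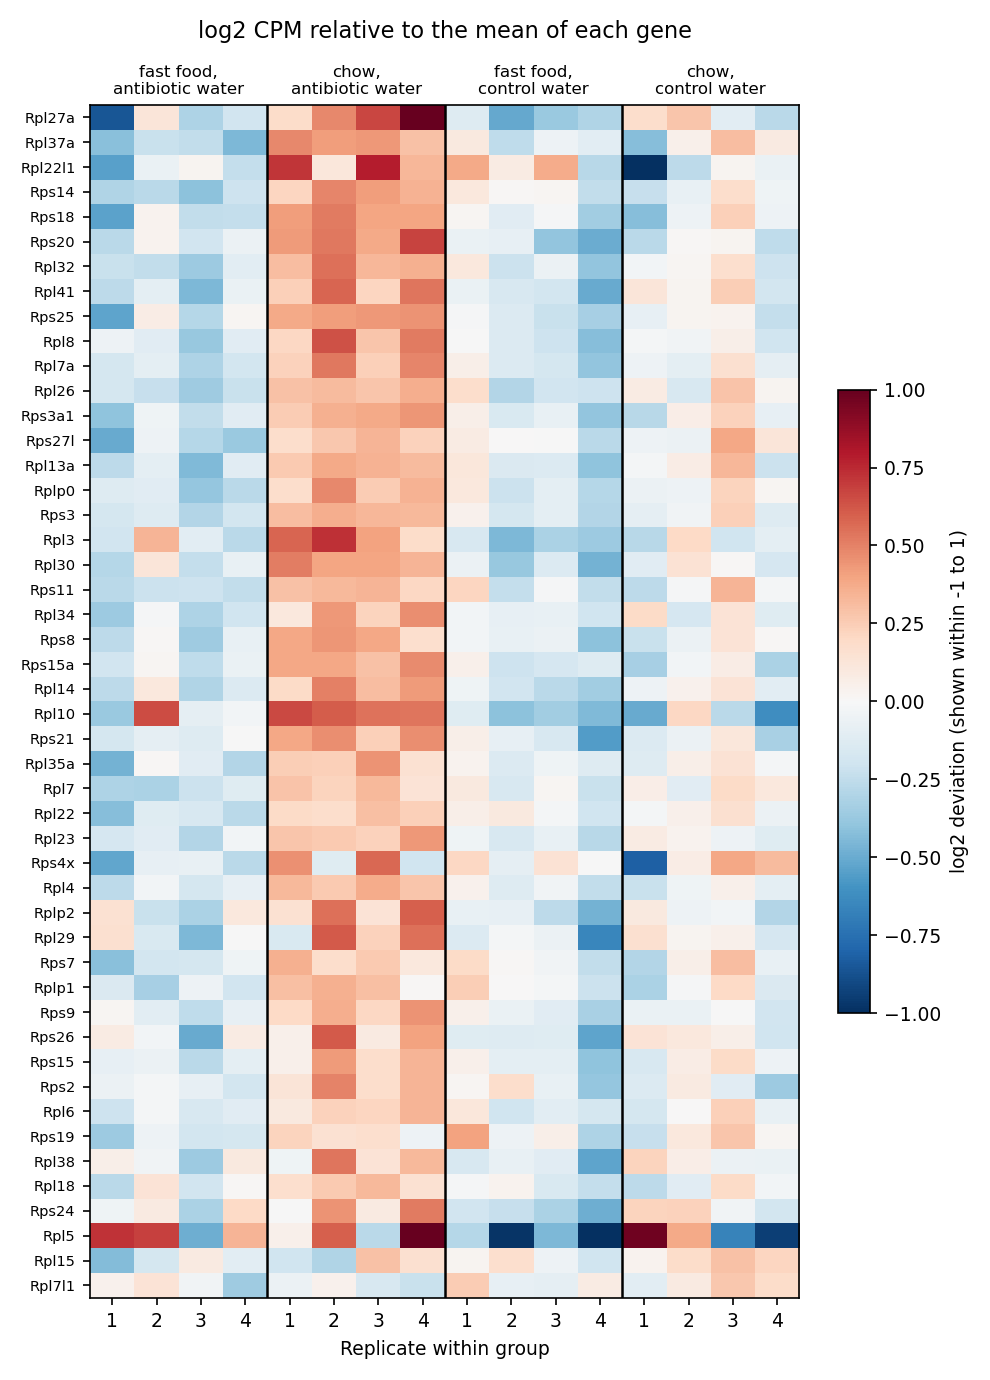
Relative level of 48 of the 50 members (rows, in the order of their fold change for fast food over chow in antibiotic water) in each of the 16 libraries (columns, by group and replicate), as log2 CPM minus the mean of the gene, with colours limited to -1 to 1. The 4 chow antibiotic columns are above the mean in most rows, whereas Rpl5 follows single libraries of several groups.

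In mice on control water, no member was called for fast food against chow. Over all genes tested, 0.243% were called higher and 0.334% lower, and 2 members had an unadjusted p under 0.05. DESeq2 also called no member. The log2 fold change was negative for 44 members, with a median of -0.12 beside -0.02 over all genes. The groups did not overlap, fast food below chow, for 2 members (Rps24 and Rpl38) and 5.15% of all genes, and above it for no member and 5.17% of all genes. Across the 50 members the fold changes for the meal in antibiotic and in control water had a Spearman correlation of 0.022, a description over genes of the same libraries.

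The 4 members of lowest p in this comparison were Rps24, Rpl41, Rpl22l1 and Rpl30, none of which passed the threshold. Rps24, mutated in some human Diamond-Blackfan anaemias, had 38.9, 37.7, 35.5 and 31.7 CPM in fast food control livers, against 51.9, 52.1, 43.3 and 39.0 CPM in chow control livers. Its 2 groups were fully apart, and the edgeR adjusted p was 0.303 (log2 fold change -0.37 ± 0.14, SE). Rpl41, the shortest ribosomal protein, averaged 70.7 ± 8.77 CPM in fast food control and 85.7 ± 10.6 CPM in chow control livers (SD, n = 4 each; edgeR adjusted p = 0.42). Rpl30 averaged 24.6 ± 3.28 CPM in fast food control and 28.8 ± 2.79 CPM in chow control livers (SD, n = 4 each; edgeR adjusted p = 0.486). On the low side of the rRNA-like split, with 4 fast food and 2 chow control libraries, the median was -0.15 with no member called.

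In fast food-fed mice, antibiotic against control water also gave no call among the members by edgeR or DESeq2. Of all genes tested, 3.77% were called higher and 2.22% lower, and 6 members had an unadjusted p under 0.05. The median log2 fold change of the members was -0.04, beside 0.02 over all genes, with 18 positive and 32 negative. No member's groups were free of overlap, where antibiotic lay above control for 9.98% and below it for 8.38% of all genes. Members of low p included Rps14, Rpl22 and Rpl5. Rps14 averaged 85.5 ± 4.97 CPM in fast food antibiotic and 103 ± 10.5 CPM in fast food control livers (SD, n = 4 each; edgeR adjusted p = 0.119). The rRNA-like split could not be examined within sides here, because no fast food control library had a high share.

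The test of whether the meal effect differed between waters (the interaction) called 1 member, Rps14, lower. Over all genes, 1.58% were called lower and 2.36% higher. For Rps14 the log2 fold change of fast food over chow in antibiotic water minus that in control water was -0.68 ± 0.15 (SE; edgeR adjusted p = 0.0225). Its control-water values were 113, 106, 106 and 88.4 CPM after fast food and 89.3, 99.9, 118 and 102 CPM after chow. The call was lost without chow control replicate 1 or fast food control replicate 1 or 3 (highest edgeR adjusted p = 0.0554). Rps15a had an interaction log2 value of -0.53 ± 0.16 (SE; edgeR adjusted p = 0.06).

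Across the 50 members the interaction was negative for 46 of 50, with a median of -0.40 beside 0.06 over all genes, and 30 had an unadjusted p under 0.05. DESeq2 called 12 members lower, RLE factors 3 and total counts 0. Leaving out single libraries gave 0 to 11 calls, with 0 without chow control replicate 1 or fast food control replicate 1 or 3, 2 without fast food control replicate 4, 5 without chow antibiotic replicate 4, 7 without chow control replicate 3 and 11 without fast food antibiotic replicate 2. Without 3 libraries set by hand as high in acute phase transcripts, 17 members were called. The 3 were fast food antibiotic replicate 2, chow antibiotic replicate 4 and chow control replicate 2. The meal in antibiotic water then gave 40 calls and antibiotics after chow 26. The acute phase levels of these libraries, and the share of all genes called without them, are not given here. With all 16 libraries, edgeR showed a difference of the meal effect between waters for Rps14 among the 50 members.

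Paralog pairs were compared by their values. Rpl22 and its paralog Rpl22l1, which in mice is held down by Rpl22, averaged 68.1 ± 6.32 and 10.7 ± 1.77 CPM in fast food antibiotic livers, and 94.0 ± 3.60 and 17.4 ± 3.73 CPM in chow antibiotic livers (SD, n = 4 each). They averaged 79.6 ± 7.21 and 13.7 ± 2.76 CPM in fast food control livers, and 82.2 ± 5.58 and 9.75 ± 3.48 CPM in chow control livers (SD, n = 4 each). Rpl22 was called lower for fast food in antibiotic water (log2 fold change -0.46 ± 0.10, SE; edgeR adjusted p = 0.00738), where Rpl22l1 had -0.70 ± 0.24 (SE; edgeR adjusted p = 0.0613). Rpl22l1 was called higher for antibiotics after chow (log2 fold change 0.82 ± 0.24, SE; edgeR adjusted p = 0.0208), where Rpl22 had 0.19 ± 0.10 (SE; edgeR adjusted p = 0.152). In both comparisons the fold changes of the pair had the same sign and neither gene's groups overlapped, and their difference was not tested. Rpl22l1's call was lost without chow antibiotic replicate 3 (edgeR adjusted p = 0.0618), and chow control replicate 1 was its lowest library at 4.72 CPM. For fast food in control water Rpl22l1 gave 0.47 ± 0.24 on the log2 scale (SE; edgeR adjusted p = 0.485), and its interaction was -1.17 ± 0.34 (SE; edgeR adjusted p = 0.0605).

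Rpl7, which sits beside the 5S ribosomal RNA region, averaged 60.4 ± 3.92 CPM in fast food antibiotic and 84.3 ± 4.75 CPM in chow antibiotic livers (SD, n = 4 each) and was called lower (edgeR adjusted p = 0.00709). Its paralog Rpl7l1 averaged 42.1 ± 5.88 and 40.6 ± 3.34 CPM in those groups, 44.8 ± 5.18 CPM in fast food control and 47.0 ± 5.08 CPM in chow control livers (SD, n = 4 each), and passed no test. Rps27l, known as a p53 target in mouse and human cells, averaged 65.8 ± 8.85 CPM in fast food antibiotic and 96.3 ± 4.55 CPM in chow antibiotic livers (SD, n = 4 each; edgeR adjusted p = 0.00955). Rps27, with nearly all of its sequence shared, was counted at 2.92 ± 1.22 CPM and 4.08 ± 0.94 CPM in those groups (SD, n = 4 each). The paralogs Rpl3l, Rpl39l and Rpl10l, known from muscle and testis, had means of 0.0862, 0.0034 and 0 CPM over the 16 libraries and were not tested. Rpl39 itself averaged 6.20 ± 0.91 CPM in fast food antibiotic and 7.21 ± 0.34 CPM in chow antibiotic livers (SD, n = 4 each). Rps4l, annotated as a transcribed processed pseudogene and so no member, averaged 10.2 ± 1.63 CPM in fast food antibiotic, 13.0 ± 3.59 CPM in chow antibiotic, 9.38 ± 1.39 CPM in fast food control and 11.0 ± 2.40 CPM in chow control livers (SD, n = 4 each).

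Rpl5 stood apart by its spread. With Rpl11 and 5S ribosomal RNA it forms the complex that binds Mdm2 when ribosome assembly is disturbed. Its biological coefficient of variation was 0.423, against 0.234 for Rpl22l1, 0.222 for Rps4x and 0.112 for the steadiest member, Rpl23. Rpl5 had 27.1, 26.4, 11.7 and 20.8 CPM in fast food antibiotic livers and 17.0, 24.8, 13.6 and 43.5 CPM in chow antibiotic livers. It had 13.4, 8.32, 11.98 and 7.77 CPM in fast food control livers and 32.1, 21.4, 10.3 and 8.52 CPM in chow control livers.

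The 7 libraries with a high rRNA-like share had 20.8 to 43.5 CPM of Rpl5 and the other 9 had 7.77 to 17.0 CPM, without overlap. Of the 50 members, Rpl5 alone was split this way by that share, and the rate over all genes tested was not counted. For antibiotic against control water after fast food its log2 fold change was 1.04 ± 0.45 (SE; edgeR adjusted p = 0.16), and with the share as a covariate it was -0.09. Rpl11 was counted at 3.11 ± 0.72 CPM in fast food antibiotic and 2.59 ± 0.55 CPM in chow antibiotic livers, and at 2.76 ± 0.43 CPM in fast food control and 2.95 ± 0.38 CPM in chow control livers (SD, n = 4 each).

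**Figure D5:**
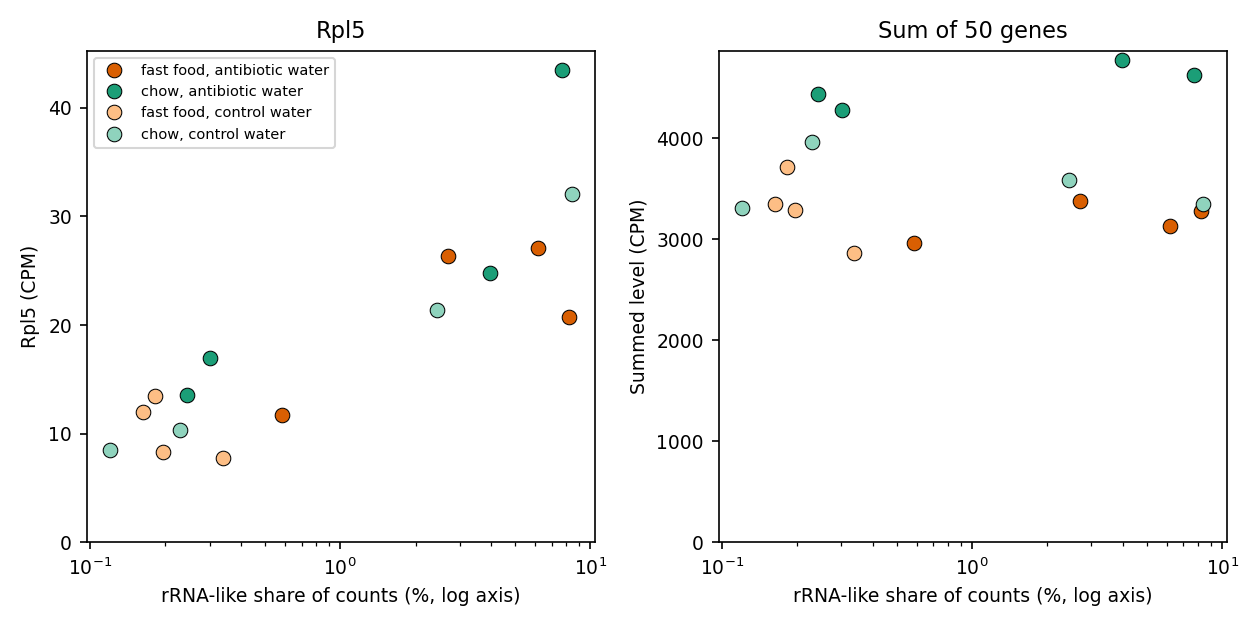
Level of Rpl5 (left, CPM) and summed level of the 50 members (right, CPM) against the rRNA-like share of counts (percent, log axis) in the 16 libraries, coloured by group. Rpl5 is at 20.8 to 43.5 CPM in the 7 libraries above 1% and at 7.77 to 17.0 CPM in the other 9. The summed level, scaled with TMM factors, is highest in the chow antibiotic libraries on both sides of 1%. On that scale it is higher above 1% within each antibiotic group.

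Rps4x, which is X-linked, was the third in spread, at 17.5 CPM in chow control replicate 1 and 45.9 CPM in chow antibiotic replicate 3, with overlap between all groups. It passed no test. Of the members' transcription units, 19 hold an annotated small nucleolar RNA (snoRNA), the guides of ribosomal RNA modification that are released from introns. In antibiotic water 15 of those 19 and 21 of the other 31 were called lower after fast food, beside 5.87% of all genes tested. After chow 15 of the 19 and 11 of the 31 were called higher with antibiotics, beside 10.6% of all genes. The median log2 fold changes of the 19 and the 31 were -0.525 and -0.481 for the meal, and 0.389 and 0.28 for antibiotics. The difference between the 19 and the 31 was not tested.

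Of the 33 coding ribosomal protein genes below the minimum, 30 passed the filter on low counts and were tested. For fast food against chow in antibiotic water 3 were called lower (Rpsa, Rpl37 and Rpl27) and none higher, with a median log2 fold change of -0.35. Of all genes, 5.87% were called lower. For antibiotic against control water after chow 3 were called higher (Rpl12, Rpsa and Rps28) and none lower, with a median of 0.39. These 3 of 30 are near the background, since 10.6% of all genes were called higher. With antibiotics after fast food none of the 30 was called. There 24 were positive, with a median of 0.23, against -0.04 in the members. The interaction median was -0.11 in these genes and -0.40 in the members. Rpsa, a small subunit protein also known as the laminin receptor, averaged 5.95 ± 1.56 CPM in fast food antibiotic, 9.96 ± 1.52 CPM in chow antibiotic, 5.58 ± 0.36 CPM in fast food control and 6.37 ± 1.13 CPM in chow control livers (SD, n = 4 each). Its edgeR adjusted p was 0.0183 for the meal in antibiotic water and 0.0198 for antibiotics after chow. Rps6, the substrate of the S6 kinases, was counted at 1.74 ± 0.99 and 2.44 ± 0.90 CPM in fast food and chow antibiotic livers, and at 1.71 ± 0.75 and 1.58 ± 0.47 CPM in fast food and chow control livers (SD, n = 4 each). Rps27a, made as a fusion with ubiquitin, averaged 5.91 ± 1.72, 7.84 ± 2.32, 4.30 ± 0.68 and 5.09 ± 1.19 CPM in fast food antibiotic, chow antibiotic, fast food control and chow control livers (SD, n = 4 each). Fau, made as a fusion of a small subunit protein with a ubiquitin-like protein, was not called in any comparison and averaged 7.94 CPM in fast food antibiotic and 7.89 CPM in chow antibiotic livers.

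Other TOP messages code for elongation and initiation factors. Of 20 tested, 11 were called lower for fast food in antibiotic water and none higher (median log2 fold change -0.40). For antibiotics after chow 9 were called higher and none lower (median 0.29). These are 55.0% and 45.0% of the list, beside 5.87% of all genes called lower and 10.6% called higher. Npm1, the nucleolar chaperone nucleophosmin, averaged 56.3 ± 2.85 CPM in fast food antibiotic, 88.3 ± 4.29 CPM in chow antibiotic, 66.9 ± 4.42 CPM in fast food control and 66.8 ± 4.64 CPM in chow control livers (SD, n = 4 each). It was called in both comparisons (edgeR adjusted p = 0.000695 and 0.00317) and in the interaction (log2 value -0.65 ± 0.12, SE; edgeR adjusted p = 0.0094). Eef1a1, which brings aminoacyl-tRNA to the ribosome, averaged 1417 ± 58.0 CPM in fast food antibiotic and 1945 ± 50.7 CPM in chow antibiotic livers (SD, n = 4 each; edgeR adjusted p = 0.0099). Rack1, a scaffold on the small subunit, averaged 284 ± 14.1 CPM in fast food antibiotic and 416 ± 13.8 CPM in chow antibiotic livers (SD, n = 4 each; edgeR adjusted p = 0.00637).

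Pabpc1, the poly(A)-binding protein, departed from this pattern. It averaged 113 ± 4.86 CPM in fast food antibiotic, 121.5 ± 22.2 CPM in chow antibiotic, 65.9 ± 1.33 CPM in fast food control and 78.0 ± 24.5 CPM in chow control livers (SD, n = 4 each). It was called higher with antibiotics after fast food (edgeR adjusted p = 0.0214) and after chow (edgeR adjusted p = 0.0126). The call after fast food was lost without fast food antibiotic replicate 4 or fast food control replicate 1, 2 or 3 (highest edgeR adjusted p = 0.0714).

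Of 40 ribosome biogenesis genes, 9 were called lower for fast food in antibiotic water (median log2 fold change -0.37). For antibiotics after chow 18 were called higher (median 0.46), and in neither comparison was any called the other way. These are 22.5% and 45.0% of the list, beside 5.87% of all genes called lower and 10.6% called higher. Ltv1, an assembly factor of the small subunit, averaged 18.0 ± 4.05 CPM in fast food antibiotic, 31.0 ± 4.48 CPM in chow antibiotic and 19.5 ± 1.595 CPM in chow control livers (SD, n = 4 each; edgeR adjusted p = 0.00482 for the meal and 0.0039 for the water). Ncl, the nucleolar protein nucleolin, averaged 122 ± 12.8 CPM in chow antibiotic and 80.3 ± 15.9 CPM in chow control livers (SD, n = 4 each; edgeR adjusted p = 0.00213). After fast food, 4 of the 40 biogenesis genes (Nob1, Nolc1, Polr1a and Tsr1) were called higher with antibiotics and none lower. Of all genes, 3.77% were called higher and 2.22% lower there. None of these 4 calls held in all 8 fits that left out 1 library. The call was lost in 7 fits for Tsr1, 6 for Nob1, 5 for Nolc1 and 2 for Polr1a. The highest edgeR adjusted p was 0.135 (Tsr1, without fast food control replicate 3).

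Of 7 non-coding snoRNA host genes tested, 5 were called lower for fast food in antibiotic water and 6 higher for antibiotics after chow. These are 71.4% and 85.7% of the list, beside 5.87% of all genes called lower and 10.6% called higher. Snhg6 averaged 8.63 ± 1.44 CPM in fast food antibiotic, 18.8 ± 1.26 CPM in chow antibiotic, 10.3 ± 0.95 CPM in fast food control and 8.97 ± 1.90 CPM in chow control livers (SD, n = 4 each). It was called in both comparisons (log2 fold changes -1.12 ± 0.15 and 1.07 ± 0.15, SE; edgeR adjusted p = 0.000695 and 0.000189). Snhg5 averaged 4.79 ± 2.37 CPM in fast food antibiotic, 19.8 ± 9.60 CPM in chow antibiotic and 5.97 ± 2.49 CPM in chow control livers (SD, n = 4 each; edgeR adjusted p = 0.00698 and 0.00546). These transcripts carry TOP tracts but code for no protein.

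Genes that control TOP messages were called in both directions. Of 23 tested, 6 were called higher and 2 lower for fast food in antibiotic water, and 5 higher and 4 lower for antibiotics after chow. The lower calls, 8.7% and 17.4% of the list, are near the 5.87% and 13.2% of all genes. The higher calls are 26.1% and 21.7%, beside 7.78% and 10.6% of all genes. Mtor, the kinase itself, averaged 80.4 ± 8.59 CPM in fast food antibiotic, 56.8 ± 3.05 CPM in chow antibiotic, 76.8 ± 3.92 CPM in fast food control and 86.6 ± 4.23 CPM in chow control livers (SD, n = 4 each), opposite in direction to the members (edgeR adjusted p = 0.00428 for the meal and 0.00029 for the water). Myc, a transcription factor for ribosome genes, averaged 5.43 ± 0.64 CPM in fast food antibiotic, 23.7 ± 17.6 CPM in chow antibiotic and 5.09 ± 2.33 CPM in chow control livers (SD, n = 4 each; edgeR adjusted p = 0.0217 and 0.009). In chow antibiotic replicate 3 Myc reached 49.1 CPM, and the mean of the other 3 libraries was 15.2 CPM. Leaving out this library, or fast food antibiotic replicate 1, 3 or 4, ended its call for the meal (highest edgeR adjusted p = 0.0603). Sesn1, an inhibitor of mTORC1, averaged 17.5 ± 3.41 CPM in fast food antibiotic, 48.7 ± 34.8 CPM in chow antibiotic and 13.0 ± 4.07 CPM in chow control livers (SD, n = 4 each; edgeR adjusted p = 0.0188 and 0.00239). The same chow antibiotic library had 99.7 CPM of Sesn1, and the mean of the other 3 was 31.7 CPM. The meal call of Sesn1 was lost without fast food antibiotic replicate 3 or 4 (highest edgeR adjusted p = 0.0634).

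Markers of other cells were set beside these results. In antibiotic water, 5 of 7 hepatocyte markers were lower after fast food and none higher, and after chow 3 were higher and 1 lower with antibiotics. Of all genes, 5.87% were called lower for that meal comparison, and 10.6% higher and 13.2% lower for that water comparison. Of 10 Kupffer cell markers, 7 were lower with antibiotics after chow and 6 after fast food, beside 13.2% and 2.22% of all genes. None of the 10 was called for either meal comparison. Their summed level was 154 to 247 CPM in fast food antibiotic, 183 to 220.5 CPM in chow antibiotic, 305 to 426 CPM in fast food control and 259 to 731 CPM in chow control livers. B cell markers summed to 1.69 CPM or less in antibiotic livers and 3.82 CPM or less in control livers, and no marker of these lists was at 0 in all libraries. All 3 B cell markers tested were called lower with antibiotics after chow. Neutrophil markers summed to 1.23 to 9.33 CPM in fast food antibiotic, 4.01 to 84.3 CPM in chow antibiotic, 1.605 to 3.26 CPM in fast food control and 2.20 to 13.1 CPM in chow control livers. The 4 neutrophil markers tested were higher in chow antibiotic than in chow control livers by a median log2 fold change of 2.37 with none called, and for fast food in antibiotic water their median was -3.09 with 1 called lower (Retnlg). They thus lay in the same direction as the members in both comparisons. The part of cell composition in the ribosomal protein result was not tested.

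Mitochondrial ribosomal proteins, which serve a separate ribosome, were counted as well. Of 78 tested, none was called for the meal in antibiotic water (median log2 fold change -0.02), and 14 were called lower and none higher for antibiotics after chow (median -0.13). The 14 are 17.9% of the 78, beside 13.2% of all genes called lower. Transcript length was compared as well. Among 869 other genes whose shortest principal transcript had at most 1000 bases, the median log2 difference was -0.13 for fast food in antibiotic water. It was 0.01 for antibiotics after chow. The 35 members with such a transcript had -0.51 and 0.38. Length here is that of the shortest principal transcript of a gene. Levels per kilobase used 1 chosen principal transcript, which can be longer.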

How the data were processed

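The authors deposited whole-number read counts per gene for 16 mouse liver libraries (poly(A)-selected TruSeq RNA, single reads of 50 bases). The tools, per the submitters' processing notes, are STAR and HTSeq, FastQC and cutadapt, and edgeR and DESeq2, with the build GRCm38.p6. These notes and the labels state no versions, annotation release, strand setting or rule for reads that match several places.

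Groups came from the labels. Genes passing edgeR's filterByExpr (minimum count 10; 13180 genes) were fitted over all 16 libraries with TMM factors and edgeR 4.0.16 (R 4.3.3; quasi-likelihood test, robust), with 4 pairwise contrasts and the interaction. All adjusted p-values are edgeR's, Benjamini-Hochberg adjusted over the 13180 genes, with a threshold of 0.05. CPM and log2 fold changes were computed here, and the SE is the log2 fold change over the root of F. The fit was tested on simulated data. DESeq2 1.42.0, other scalings, filters, covariates and left-out libraries were alternatives.

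Members and gene lists were chosen with earlier results of these data known. Genes described in full were the 4 members of lowest p in each comparison, paralog pairs, members of special role, the 3 highest and 3 lowest per kilobase, and the 3 of highest dispersion. From each pathway list, called genes of low p were named. Same-numbered replicates did not deviate together (correlations of -0.22 to 0.19), so numbers were not taken as pairs. Gene annotation was GENCODE M21, and promoters were RefSeq's. Some genes that these rules name are not reported here or drawn gene by gene, but they stay in the counts, medians and sums.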

Additional observations from a re-analysis of the deposited data

Results flagged for a closer look

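The interaction of meal and water for Rps14 was -0.68 on the log2 scale (edgeR adjusted p = 0.0225), so its meal effect differed between waters by a test of the difference itself. Fast food over chow gave -0.67 ± 0.11 (SE) in antibiotic water and 0.01 ± 0.11 (SE) in control water. Leaving out chow control replicate 1, or fast food control replicate 1 or 3, ended the call.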

How the results depend on the processing

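The meal in control water and antibiotics after fast food gave 0 member calls under all settings run. With total counts only, an alternative chosen after seeing the data, 11 members were called for the meal in antibiotic water (median -0.29), 4 for antibiotics after chow (median 0.0835) and 0 in the interaction (median -0.19). The share of all calls that were higher moved with it to 89.6% for the meal in antibiotic water, 14.4% for antibiotics after chow and 88.0% for the interaction, against 57.0%, 44.4% and 59.9% with TMM factors. Fitting the 2 groups alone gave 17 calls for the meal in antibiotic water, and the high rRNA-like side (3 fast food and 2 chow libraries) gave 0. With the rRNA-like share as covariate, the meal in antibiotic water gave 40 calls, of which 34 were shared with the main fit. Antibiotics after chow gave 26 there. With the split as a term the counts were 42 and 27, and 1 for the interaction. For antibiotics after chow the low side gave 8 calls and the high side 0. Leaving out single libraries gave 30 to 39, 16 to 26 and 0 to 11 calls for the meal in antibiotic water, antibiotics after chow and the interaction. The interaction gave 12 calls with DESeq2, 3 with RLE factors, 2 with a mean of 10 counts in every group, 0 with the rRNA-like share as covariate and 17 without the 3 acute phase libraries. The replicate block gave 34 calls for the meal in antibiotic water, 24 for antibiotics after chow and 2 in the interaction. The summed level without TMM factors was 3976 CPM in chow antibiotic livers, and with totals that leave out the rRNA-like features it was 3423 CPM in fast food antibiotic and 4099 CPM in chow antibiotic livers. The log2 fold change of Rpl5, antibiotic against control water, fast food, reversed to -0.0865 with the rRNA-like share as covariate. The cause of these shifts was not tested. Of the other single-gene values, 1982 kept direction and side of the threshold, 440 lost the call and 19 gained it. Low counts limit the 33 genes below the minimum.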

Other observations

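Of 6 genes of the p53 response to disturbed ribosome assembly, none was called for either meal comparison. Antibiotics after chow gave 2 lower calls (Ccng1, log2 fold change -0.38, and Eda2r, log2 fold change -1.67, by edgeR) and 0 higher. The 2 lower calls are 33.3% of the list, beside 13.2% of all genes called lower. Of the 6 genes, 3 had a positive fold change. Among them Cdkn1a, not called, had 35.05, 46.3, 16.85 and 52.7 CPM in chow antibiotic livers, against 4.08, 19.4, 1.39 and 7.74 CPM in chow control livers. Eda2r was near the floor, at 0.0876 to 0.71 CPM in chow antibiotic and 1.305 to 2.04 CPM in chow control livers. The call of Ccng1 was lost in 5 of the 8 fits that left out 1 library (without chow antibiotic replicate 1, 2 or 4 or chow control replicate 3 or 4), with a highest edgeR adjusted p of 0.12.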
